A study of Drosophila melanogaster with 26 samples.

Results

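Newly formed primordial germ cells (PGCs) of wild-type Drosophila melanogaster embryos were set against the somatic cells sorted from embryos of the same age, 1 to 3 hours after egg laying. All samples that the labels give as wild-type PGCs or wild-type somatic cells of this age were taken, 4 of PGCs and 4 of somatic cells, which is 8 of the 26 samples of the series. The remaining samples are older PGCs and PGCs from smaug mutants. The labels call both groups wild type, and the stock without a smaug allele named in the methods has a w1118 background and carries VASA-GFP over the CyO balancer together with PrDr over TM3, Sb. PGCs are the cells sorted as GFP-positive and somatic cells those sorted as GFP-negative, so that VASA-GFP, a germ line marker, defines both groups, and each sample is a pool of cells from many embryos. The labels number 4 biological replicates in each group. They give Cy5 as the dye of all 4 PGC samples and Cy3 as that of all 4 somatic samples, so dye and cell type cannot be told apart.

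PGCs form at the posterior pole of the embryo, where the first nuclei to be enclosed by membrane take up the germ plasm, a cytoplasm that the mother has loaded with localized RNAs and with proteins such as Oskar, Vasa and Tudor. They stop dividing early and hold back transcription by RNA polymerase II, for which the small protein Pgc is known. The somatic nuclei meanwhile cellularise, clear much of the maternal RNA and switch on the zygotic genes that pattern the embryo.

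Each value below is the log2 of a deposited intensity, and each difference is PGCs minus somatic cells on that scale. A transcript was called higher or lower at an adjusted p under 0.05 and a fold above 2. Of 16623 transcripts tested with limma, 3080 (18.5%) were higher and 2908 (17.5%) were lower in PGCs. The median of all differences was 0.15. The replicates of the 2 groups did not overlap in 2936 of the transcripts called higher and in 2751 of those called lower. The calls rest on the same replicates, so these counts are no separate support for them. The calls were not alike in size. A fold above 16 was reached by 59 transcripts that were higher and by 461 that were lower in PGCs, and a fold above 32 by 8 and 223. The mean in PGCs was no brighter than the brightest of 17 array controls (mean 5.19) for 803 of the transcripts that were lower, and the mean in somatic cells was no brighter than theirs (4.46) for 280 of those that were higher. When the arrays were centred on their medians, all differences moved up by 0.26, and 63.3% of the calls were higher in PGCs, against 51.4% with the values as deposited. In a bulk sample, less RNA per cell and fewer cells with the RNA cannot be told apart.

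**Figure D1:**
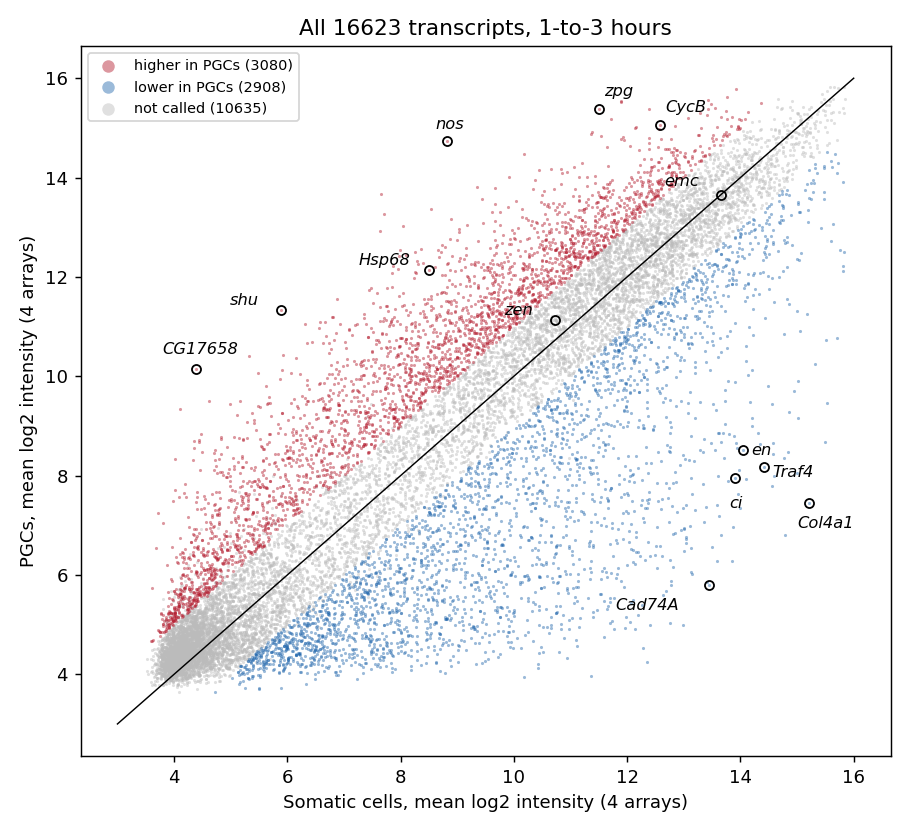
Mean log2 intensity of each of the 16623 transcripts in PGCs (vertical axis, 4 arrays) and in somatic cells (horizontal axis, 4 arrays), with the calls in colour and 13 named genes circled. The 2908 transcripts lower in PGCs spread farther from the line of equal signal than the 3080 that were higher.

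The PGC arrays varied more among themselves than the somatic arrays did. The median SD of a transcript was 0.31 in PGCs and 0.22 in somatic cells, and Spearman's correlation between arrays, given as a description, was 0.945 to 0.955 within PGCs, 0.981 to 0.991 within somatic cells and 0.862 to 0.878 between the groups. Somatic replicate 4 stood apart in many single genes, and without it 3031 transcripts were higher and 2890 lower. The deposited table gives transcript identifiers only, and gene names could be attached to 5395 transcripts of 4727 genes by symbol, of which each gene is represented by its brightest transcript. Naming was uneven, since 62.9% of the transcripts higher in PGCs have a name and 20.8% of those lower. Among the 4727 genes, 35.8% were higher and 10.6% lower, and the median difference was 0.50. For 4191 genes the name did not depend on this comparison, and of these 29.5% were higher and 10.2% lower. Counts within gene lists are to be read against those shares.

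The genes of largest excess in PGCs were led by nos (FBgn0002962), the translational repressor that patterns the posterior and keeps PGCs from somatic fates. Its 4 PGC samples had 14.72, 14.63, 14.75 and 14.83, against 8.73, 9.30, 8.67 and 8.57 in somatic cells, 60.3-fold apart (difference 5.91 ± 0.18 SE, limma adjusted p = 4.5e-08). Both sets of replicates are tight and lie far from each other. The uncharacterised gene CG17658 had 9.98 to 10.27 in PGCs against 4.07 to 4.64 in somatic cells, where its mean was below that of the brightest array control. Its ratio is therefore given as at least 51.4-fold. Next came shu, which encodes a co-chaperone of the piRNA pathway, with 11.19, 11.37, 11.36 and 11.44 in PGCs and 5.94, 6.47, 5.59 and 5.56 in somatic cells. CG17698 (5.28), CG1894 (5.07), CG32373 (4.74) and CG4238 (4.67), which have no name beyond their annotation number, followed. Replicates without overlap were a condition for entry to this list. The list closed with stil (4.59), required for female germ cells, armi (4.55), a helicase of piRNA production, and Taf12L (4.52), a relative of the TFIID subunit gene Taf12. CG1894 was the least even of the 10, with 12.12 in PGC replicate 1 and 9.62 to 10.13 in the other PGC replicates.

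The brightest transcript stands for each gene here, and the widest gap of all transcripts in the PGC direction lay elsewhere. RapGAP1, which encodes a GTPase-activating protein (GAP) that acts on Rap1, has 4 named transcripts. FBtr0112603 had 13.34, 13.94, 13.99 and 13.38 in PGCs, against 7.73, 7.37, 7.02 and 8.51 in somatic cells (difference 6.0 ± 0.32 SE, limma adjusted p = 4.7e-07), and FBtr0079522 differed by 5.55. FBtr0112606 differed by 2.18, and FBtr0091494, at 13.33 to 13.80 in PGCs against 12.74 to 13.15 in somatic cells, by 0.56, which was below the 2-fold limit. The size of the excess thus depended on which transcript of RapGAP1 was read. These transcripts were singled out after their values were seen.

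**Figure D2:**
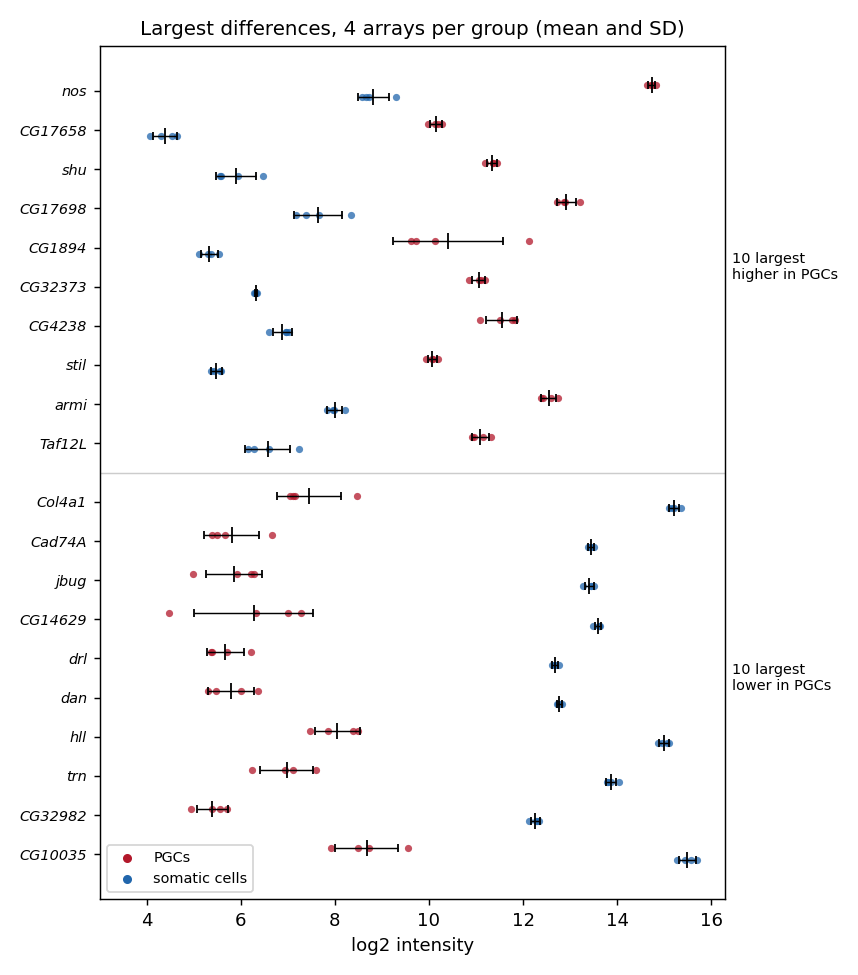
Log2 intensity in each of the 4 PGC and 4 somatic arrays (points) with mean and SD, for the 10 named genes of largest difference in each direction. The genes were chosen among those without overlapping replicates. Among the genes lower in PGCs the PGC points scatter more widely than the somatic points.

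Germ plasm and pole cell RNAs were higher as a group. Of 23 genes on the list 19 had a name, and 16 were higher, 0 lower and 3 not called, with a median difference of 3.08. Of the 18 named without use of this comparison 15 were higher. After nos, the widest differences belonged to spir, an actin nucleator needed for oocyte polarity, at 13.23, 12.78, 13.39 and 13.25 in PGCs against 9.09, 9.31, 9.07 and 8.12 in somatic cells, to orb (4.13), which binds the 3′ ends of germ line messages, and to zpg (3.88), the germ line gap junction protein. All 3 named orb transcripts were higher, by 4.13 to 4.98. For zpg the 4 PGC samples had 15.21 to 15.52, against 11.18 to 11.96 in the somatic ones. The 3 genes nearest to 0 were stau (-0.66), which localizes osk RNA in the oocyte, capu (0.63), the formin that works with Spir, and Tre1 (0.72), the receptor that guides PGC migration. Tre1 had 14.14 to 14.54 in PGCs against 13.56 to 13.85 in somatic cells, apart in all replicates but by less than 2-fold.

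All 5 PGC markers were higher in the cells labelled PGCs. Beside nos, pgc had 15.58, 15.56, 15.61 and 15.41 in PGCs, against 12.23, 12.28, 11.46 and 11.59 in somatic cells, a 12.5-fold difference. The gene gcl (3.51), needed for PGCs to form, and osk (3.28), whose product builds the germ plasm, followed. The smallest difference was that of vas, the RNA helicase gene, with 12.48 to 13.21 in PGCs against 11.09 to 11.85 in somatic cells (2.26-fold). Both groups carry the VASA-GFP transgene, and whether the vas probes also read its RNA was not tested. An array feature for GFP had 12.42, 13.02, 12.93 and 12.39 in PGCs and 12.49, 12.89, 12.81 and 13.02 in somatic cells, which overlap (two-sided exact permutation test, p = 0.66, where 4 against 4 samples allow no p below 0.0286). GFP RNA signal was thus not lower in the cells sorted as GFP-negative.

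The piRNA pathway, in which Piwi-class proteins loaded with small RNAs silence transposons in the germ line, showed the same direction. Of 24 genes 19 had a name and 18 were higher, with a median difference of 2.67, and of the 14 named without use of this comparison 13 were higher. Besides shu and armi, qin, needed for the exchange of piRNAs between Aub and Ago3, averaged 13.80 ± 0.21 in PGCs and 9.35 ± 0.52 in somatic cells (SD, n = 4 each, no overlap), and del, a partner of Rhino at piRNA clusters, was 11.6-fold higher. The Piwi-class genes themselves differed by less, with piwi at 3.07, AGO3 at 2.43 and aub at 1.58. At the low end lay rhi (1.03), which marks piRNA clusters in chromatin, vas, and squ (0.99), which missed the fold limit. The call of rhi was lost without PGC replicate 2 (0.97) and after a second quantile normalization (0.94). The gene squ passed with median centring (1.25), without PGC replicate 4 (1.10) or 3 (1.05), and without somatic replicate 2 (1.02) or 1 (just above 1). Differences of this list therefore ran over a range from 1.99-fold to 43.7-fold.

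Genes of maternal RNA repression and decay did not move as one. Of 19 genes 15 had a name, and 4 were higher, 1 lower and 10 not called, with a median difference of 0.26. The shares higher and lower, 26.7% and 6.7%, were below the 35.8% and 10.6% of all named genes. Highest was pum, the partner of Nanos in repression, with 15.20, 14.79, 15.14 and 14.90 in PGCs against 12.13, 12.24, 12.19 and 11.96 in somatic cells. Also higher were cup (1.76), a repressor that binds eIF4E, eIF4E1 (1.29), the cap-binding protein, and twin (1.13), a deadenylase. Lower was brat (-1.51), another cofactor of Pumilio and Nanos, with 13.07 to 13.69 in PGCs against 14.78 to 15.10 in somatic cells. The deadenylase subunit genes Pop2 (0.23) and Not3 (0.13) and the gene of the poly(A)-binding protein, pAbp (0.06), had overlapping replicates. A dimmer transcript of eIF4E1, FBtr0076492, was lower (-1.37).

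Of the cell cycle genes 18 of 21 had a name, and 6 were higher and 0 lower at a median difference of -0.14. The share higher, 33.3%, was close to the 35.8% of all named genes. The 3 genes of the PAN GU kinase complex, which drives the first embryonic cycles through translation of maternal cyclin messages, were all among the 6. These were png, at 12.35, 12.68, 12.56 and 12.36 in PGCs against 9.61, 9.82, 9.51 and 9.80 in somatic cells, plu (2.13) and gnu (1.87). CycB, the mitotic cyclin whose RNA is localized to the germ plasm, averaged 15.06 ± 0.05 in PGCs and 12.58 ± 0.29 in somatic cells (SD, n = 4 each), a 5.58-fold difference. The other mitotic cyclin gene CycA (-0.16), fzy (-0.22), an activator of cyclin destruction, and Cdk4 (-0.11) had overlapping replicates, and the remaining members that were not called ran between -0.64 and 0.61.

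Heat shock genes were higher in 8 of 10 named members of 13 listed, with a median difference of 2.24, and all 10 had been named without use of this comparison. Hsp68 averaged 12.15 ± 0.16 in PGCs (SD, n = 4) against values of 8.41 to 8.63 in somatic cells, a 12.5-fold difference, and the small chaperone genes Hsp27 (14.47 to 14.90 against 11.77 to 12.20) and Hsp23 (13.25 to 13.71 against 10.53 to 10.83) were 7.41-fold and 6.93-fold higher. Hsp22 differed by 4.0 at a dim level, 7.92 to 8.79 in PGCs against 4.11 to 4.64 in somatic cells. The mitochondrial chaperone gene Hsp60A was 2.70-fold higher. The constitutive Hsc70-4 (-0.41) and DnaJ-1 (0.26), a co-chaperone, were not called. Before sorting, the protocol of the paper warmed the dissociated cells during a trypsin step. The effect of that step on the heat shock genes was not tested.

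**Figure D3:**
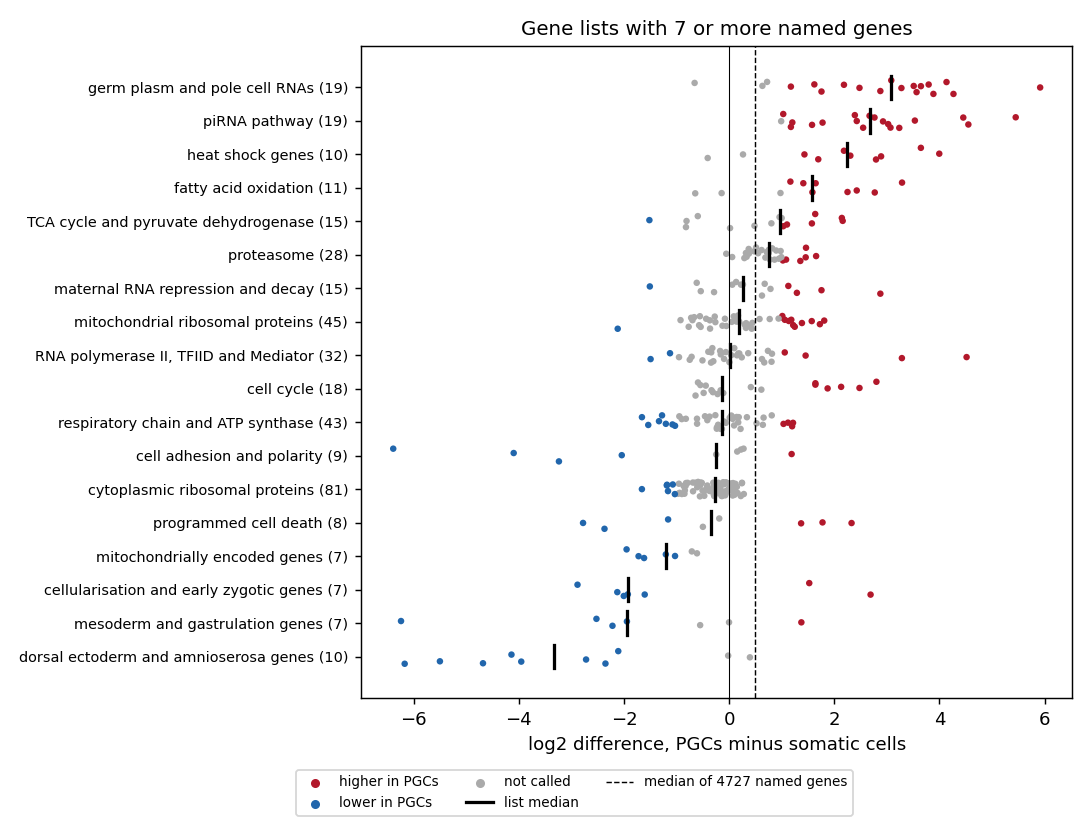
Log2 difference, PGCs minus somatic cells, of each named gene (points, coloured by call) in the 18 gene lists with 7 or more named genes, with the list median (bar) and the median of 4727 named genes (dashed line, 0.50). Germ plasm, piRNA and heat shock genes lie to the right, dorsal ectoderm and mesoderm genes to the left, and ribosomal protein genes cluster near 0.

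Of the fatty acid oxidation genes 11 of 14 had a name, and 8 were higher and 0 lower, with a median of 1.58, while 4 of the 7 named without use of this comparison were higher. Mtpbeta, of the trifunctional enzyme of mitochondrial beta-oxidation, had 11.02, 11.43, 11.31 and 10.72 in PGCs against 7.65, 7.60, 7.66 and 8.41 in somatic cells. Acox57D-d, a peroxisomal acyl-CoA oxidase, scu and Echs1 were 6.82-fold, 5.38-fold and 4.76-fold higher. The neighbouring oxidase gene Acox57D-p had 10.99 to 11.45 in PGCs against 11.25 to 11.37 in somatic cells, so that 2 genes of the same enzyme family parted. Mcad (0.98) was just under the fold limit and passed it with median centring (1.24) and without PGC replicate 1 (1.02) or somatic replicate 3 (1.03), and wal, an electron transfer flavoprotein subunit, stood at -0.64.

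In the tricarboxylic acid cycle and pyruvate dehydrogenase, 15 of 20 genes had a name, 6 were higher and 1 was lower, with a median of 0.96 (5 and 1 of the 13 named without use of this comparison). The share higher, 40.0%, was close to the 35.8% of all named genes. Mdh2, malate dehydrogenase, had 12.71, 12.90, 12.95 and 12.04 in PGCs and 10.52, 10.49, 10.15 and 10.80 in somatic cells. Fum1, fumarase (2.14), Pdha, a pyruvate dehydrogenase subunit (1.64), and ScsbetaA, a succinyl-CoA synthetase subunit (1.57), were higher as well. The aconitase gene mAcon1 ran the other way, at 12.16 to 12.32 in PGCs against 13.54 to 13.85 in somatic cells. Citrate synthase, kdn (-0.60), and the isocitrate dehydrogenase subunits Idh3a (0.02) and Idh3b (0.48) were not called.

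The respiratory chain and ATP synthase list held 43 named genes, of which 4 were higher, 7 lower and 32 not called, at a median of -0.14 that became 0.12 with median centring. Those lower included UQCR-14, of complex III, at 11.49 to 11.80 in PGCs against 13.05 to 13.45 in somatic cells, ND-MNLL (-1.54), of complex I, and COX7C (-1.33) and COX5A (-1.28), of complex IV. ATPsynC (1.20) and UQCR-C1 (1.03) were higher, but the first lost its call without somatic replicate 4 (0.99) and the second without PGC replicate 2 (0.92) or 3 (0.92) or somatic replicate 1 (0.96) or 3 (0.98). The number of genes higher was 1 without somatic replicate 3, and 2 without any 1 of somatic replicates 1 and 4 and PGC replicates 2, 3 and 4. ATPsyndelta, ND-20 and ND-ACP differed by 0.01 to 0.04.

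Messages made inside mitochondria were measured by 7 named genes of the mitochondrial genome, 3 of which belong to the preceding list too. All 7 differences were negative, 5 were called lower and the median was -1.2. Of the 5, COX1 (-1.20) and ND3 (-1.95) had overlapping replicates. ND1 had 13.37, 13.02, 13.29 and 13.55 in PGCs against 15.09, 15.37, 15.21 and 14.44 in somatic cells, and ND4 had 13.13, 12.56, 13.34 and 13.30 against 15.02, 14.97, 14.95 and 13.84. In both genes somatic replicate 4 was the somatic sample nearest to the PGCs, and the same sample was lowest for COX2 (13.48 against 14.32 to 14.35 in the other somatic replicates), ATP6 and COX3. COX2 (-1.03) missed the limit without any 1 of somatic replicates 1 (-0.96), 2 (-0.95) and 3 (-0.96) or PGC replicate 2 (-0.94), while ATP6 (-0.71), not called, reached it without somatic replicate 4 (-1.05). With median centring 3 of the 7 were called.

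Protein synthesis and destruction showed small differences. Of 81 named cytoplasmic ribosomal protein genes, which are very bright in both groups, 0 were higher and 6 lower, at a median of -0.27, or -0.01 with median centring. The largest difference was that of RpL34a, which was 3.16-fold lower with no overlap of replicates. RpL26 and RpL8 differed by -0.04 and 0.00. Without somatic replicate 4 the number lower was 10, and with median centring it was 1. Of 45 mitochondrial ribosomal protein genes 11 were higher and 1 lower, at a median of 0.19. The share higher, 24.4%, was below the 35.8% of all named genes. Of the 42 named without use of this comparison 8 were higher and 1 lower. In this list mRpL54 had 12.44 to 12.90 in PGCs against 10.48 to 10.98 in somatic cells. The genes mRpS5 and mRpL12 were 3.31-fold and 2.97-fold higher, and mRpS25 was 4.34-fold lower. Of 28 named proteasome genes 27 had a positive difference, at a median of 0.75. The 2-fold limit was passed by 6, and with median centring by 15. The share of the 6, 21.4%, was also below the 35.8% of all named genes. The largest were Prosalpha4 (1.65), of the core particle, and Rpn8 (1.46), Rpn13 (1.46) and Rpn5 (1.35), of the regulatory particle. Rpn11, the deubiquitinase, and Rpn12 stood at -0.05 and 0.06.

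The genes of RNA polymerase II, TFIID and Mediator had a median difference of 0.02 over 32 named members, with 4 higher, 2 lower and 26 not called. Taf12L had 11.31, 11.15, 10.92 and 10.96 in PGCs against 6.61, 7.23, 6.29 and 6.16 in somatic cells, whereas its relative Taf12 differed by -0.10. MED26, of Mediator, was 9.75-fold higher, with 12.84 to 13.48 in PGCs against 8.78 to 10.18 in somatic cells, and Taf7 was 2.74-fold higher. The polymerase subunit genes Polr2L (-1.49) and Polr2F (-1.12) were lower, and Polr2F had 11.42 to 12.09 in PGCs against 12.69 to 12.90 in somatic cells. Polr2I, Taf6 and Taf1 had overlapping replicates.

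On the somatic side, the widest gap of any named gene was that of Col4a1 (FBgn0000299), a collagen of basement membranes, with 7.11, 7.15, 8.48 and 7.05 in PGCs against 15.11, 15.21, 15.17 and 15.35 in somatic cells (difference -7.76 ± 0.30 SE, limma adjusted p = 1.0e-07). Its PGC signal was 0.461% of the somatic signal. Cad74A, a cadherin, had 5.50, 6.66, 5.38 and 5.67 in PGCs and 13.43, 13.52, 13.38 and 13.45 in somatic cells. The gene jbug, of a filamin-like actin-binding protein, was 189-fold lower in PGCs. In PGC replicates 1, 3 and 4 jbug had 4.98, 6.21 and 6.29, below the brightest control on the same array (5.37, 7.56 and 6.32). In PGC replicate 2 it lay above that control (5.93 against 5.10), so the size of its ratio is uncertain. Also among the 10 were CG14629 (-7.31), drl (-7.01), a receptor for Wnt5, dan (-6.98), a nuclear protein of antennal and eye fate, hll (-6.95), trn (-6.90), a leucine-rich repeat surface protein, CG32982 (-6.86) and CG10035 (-6.82). CG32982 was likewise below the brightest control of the array in PGC replicates 1, 3 and 4. Cad74A, drl, dan and CG14629 were below it in PGC replicates 3 and 4, and trn in PGC replicate 3. In these 10 genes the somatic SD was 0.05 to 0.18, and the PGC SD was 0.32 to 1.27. CG14629 was the most uneven, at 7.01, 7.28, 6.33 and 4.47 in PGCs. The naming limits this list, because 21 of the 31 transcripts with a difference at least as large have no name here, against 2 of 16 in the other direction. Of the 10 genes 1 was named without use of this comparison, against 6 of the 10 in the other direction.

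Dorsal ectoderm and amnioserosa genes, some of which act in Decapentaplegic (Dpp) signalling, were lower in PGCs in 8 of 10 named members of 13 listed (median -3.34). Of the 9 named without use of this comparison 7 were lower. Ance, a peptidase, had 8.51, 8.90, 7.23 and 7.06 in PGCs against 13.95, 14.05, 14.20 and 14.18 in somatic cells. Its value in PGC replicate 3 was below the brightest control of the array (7.56). The protease gene tld, which frees the Dpp ligand, had 4.42 to 5.82 in PGCs, where its mean was no brighter than the array controls, and 10.54 to 10.76 in somatic cells, a gap given as at least 44.0-fold. The transcription factor genes tup (-4.68), Doc2 (-4.14) and Doc3 (-2.11) were lower too. The exceptions were emc (-0.02), whose RNA the mother also supplies, and zen (0.40), a homeobox gene of the amnioserosa, which had 10.89, 11.23, 11.01 and 11.37 in PGCs and 10.74, 10.84, 10.88 and 10.46 in somatic cells (limma adjusted p = 0.067).

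Axis and segment genes have few names in these data. The segment polarity genes en and ci were both lower. The homeobox gene en had 8.56, 8.22, 8.12 and 9.14 in PGCs against 13.96, 14.04, 13.75 and 14.40 in somatic cells, and ci, the transcription factor of Hedgehog signalling, had 7.21 to 8.88 against 13.16 to 14.24. Of the pair-rule genes opa was 27.7-fold lower, and ftz-f1, a nuclear receptor gene whose RNA is maternally supplied, was 2.23-fold higher. The Hox gene Abd-B had 7.90 to 9.21 in PGCs against 11.27 to 12.18 in somatic cells. Among 3 gap and head genes hkb was lower (-2.61), tll, like hkb a target of Torso signalling at the poles, had 10.55 to 10.88 in PGCs against 9.75 to 10.25 in somatic cells and was not called (0.72), and cad, a maternal and zygotic homeobox gene of the posterior, was higher (1.51). The terminal genes hkb and tll thus lay on opposite sides of 0.

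Of 7 named mesoderm and gastrulation genes 4 were lower, 1 was higher and 2 were not called (median -1.94), and 3 of the 6 named without use of this comparison were lower. Traf4, an adaptor protein, had 7.94, 8.47, 8.32 and 7.99 in PGCs against 14.52, 14.36, 14.43 and 14.37 in somatic cells. The repressor gene sna, which defines the mesoderm, had 10.40 to 10.71 in PGCs against 12.92 to 13.24 in somatic cells. For wntD (-2.22), a feedback inhibitor of Dorsal signalling, the call was lost when all 7 groups shared a fit, and Mef2 (-1.94), the muscle regulator, kept its call in every alternative run for it. The apical constriction genes did not follow, since fog had 11.24 to 12.01 in PGCs against 11.33 to 11.80 in somatic cells, and T48 was 2.59-fold higher in PGCs.

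Cellularisation and early zygotic genes split. Of 7 named members, 5 were lower and 2 higher (median -1.93), and all 7 were named without use of this comparison. Lower were slam, required for the growth of cell membranes, at 10.15, 11.07, 10.73 and 10.57 in PGCs against 13.45, 13.80, 13.54 and 13.27 in somatic cells, zld (-2.13), the activator of the zygotic genome, Sry-alpha (-2.0), a cellularisation gene, Sxl (-1.93), the sex-determination switch, and sc (-1.6). Higher were the X-linked counting gene sisA, with 10.01, 10.15, 9.96 and 9.95 in PGCs against 7.37, 7.10, 7.14 and 7.71 in somatic cells, and nullo (1.52), a gene of the cellularisation furrow. The calls of sc and nullo were lost when all 7 groups shared a fit. The sex-determination genes sisA and sc, both known as counting elements that activate Sxl in the soma, thus differed in opposite directions. In the neuroectoderm list, sc and sim (-0.91), the midline regulator, were named, and sim passed the limit without PGC replicate 2 (-1.03).

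**Figure D4:**
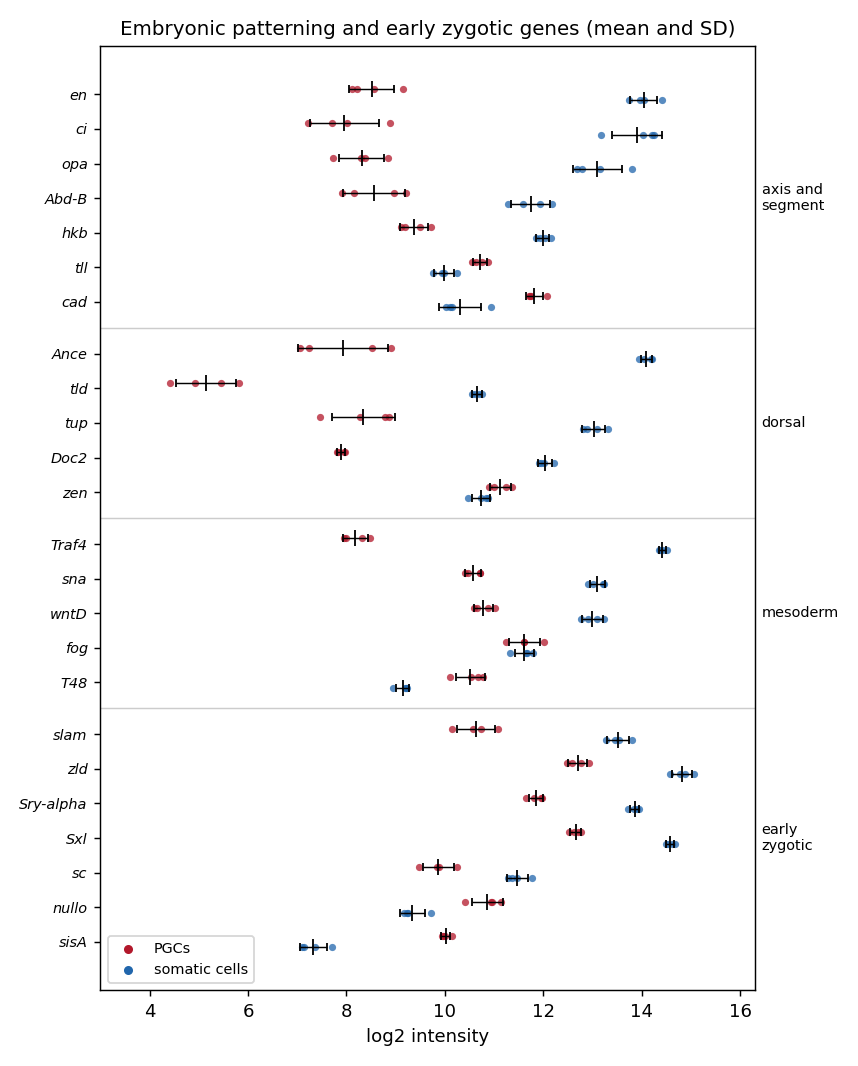
Log2 intensity in each of the 4 PGC and 4 somatic arrays (points) with mean and SD, for 24 patterning and early zygotic genes. Most of them are lower in PGCs, en by 46.2-fold and Traf4 by 75.5-fold, whereas sisA, nullo, T48 and cad are higher in PGCs and fog, zen and tll were not called.

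Matrix and adhesion genes were lower where they were called, with 1 exception. All 3 named genes of 13 on the basement membrane list were lower, Col4a1, Pxn, a peroxidase of the matrix (5.21, 5.54, 5.08 and 5.37 in PGCs against 11.32 to 11.58 in somatic cells), and Plod (-1.67), which modifies collagen. Pxn was below the brightest control of the array in PGC replicates 1, 3 and 4, so the size of its difference is uncertain. Col4a1 and Pxn have their names only through lists drawn from this comparison, so that their direction was set by the naming, and Plod was named without it. Of 9 named adhesion and polarity genes of 21, 4 were lower, 1 was higher and 4 were not called (median -0.25). Of the 7 named without use of this comparison 2 were lower and 1 was higher, and their median was 0.15. The Toll-family receptor gene 18w had 6.13, 6.13, 7.19 and 7.14 in PGCs against 12.99, 13.06, 13.14 and 12.95 in somatic cells. Fas3, an adhesion protein of epithelia, and scb, an integrin subunit, were 17.1-fold and 9.42-fold lower. In PGC replicate 3 the values of 18w, Fas3 and scb were below the brightest control of the array (7.56). The maternal Toll receptor gene Tl was higher (1.19), a call that was lost without somatic replicate 4 (0.94). E-cadherin, shg, had 10.59 to 11.08 in PGCs against 11.05 to 11.37 in somatic cells, and scrib and alpha-Cat had overlapping replicates too, at 0.15 and 0.23.

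Programmed cell death genes parted as well, with 3 higher, 3 lower and 2 not called of 8 named. The share higher, 37.5%, was close to the 35.8% of all named genes. The share lower, also 37.5%, was above their 10.6%. The killer gene rpr had 8.75, 9.02, 7.62 and 7.94 in PGCs against 11.25, 11.49, 11.10 and 10.59 in somatic cells, and the inhibitor it acts on, Diap1, had 7.99 to 8.38 against 10.13 to 10.95. The effector caspase gene Dcp-1 was 2.23-fold lower. The initiator caspase gene Dronc had 14.32, 14.24, 14.21 and 14.32 in PGCs against 12.69, 12.83, 12.66 and 13.43 in somatic cells, and p53 (1.78) and the Bcl-2 family gene Debcl (2.33) were also higher. Dark (-0.50) and Buffy (-0.19) had overlapping replicates.

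In 6 of 501 genes with at least 2 named transcripts, separate transcripts were called in opposite directions with no overlap of replicates. They were CG4199, Tlk, dlg1, eIF4E1, lola and mod(mdg4), and were singled out after their values were seen. For dlg1, a scaffold protein of cell junctions, FBtr0073483 had 11.09, 10.71, 10.36 and 10.07 in PGCs against 8.28, 8.31, 8.37 and 8.09 in somatic cells (difference 2.29 ± 0.22 SE, limma adjusted p = 1.9e-05), and the brighter FBtr0112813 had 12.49, 12.20, 12.51 and 12.43 against 14.36, 14.37, 14.34 and 14.72 (-2.04 ± 0.15 SE, limma adjusted p = 3.3e-06). In Tlk, a protein kinase gene, FBtr0112680 was lower by a wide and uneven margin, with 10.31, 9.98, 11.01 and 12.35 in PGCs against 14.81 to 15.19 in somatic cells, and FBtr0299582 was higher (1.13). Of 5 eIF4E1 transcripts 2 were higher, by 1.25 and 1.29, and FBtr0076492 was lower, with 11.77 to 12.11 in PGCs against 13.06 to 13.52 in somatic cells. CG4199 had 1 transcript in each direction (2.87 and -1.39). The transcription factor gene lola had 6 transcripts higher and 5 lower of 16, and the chromatin gene mod(mdg4) had 1 higher and 2 lower of 15. Transcripts of 1 gene share sequence, and how far their probes overlap is not given in the sources used here.

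**Figure D5:**
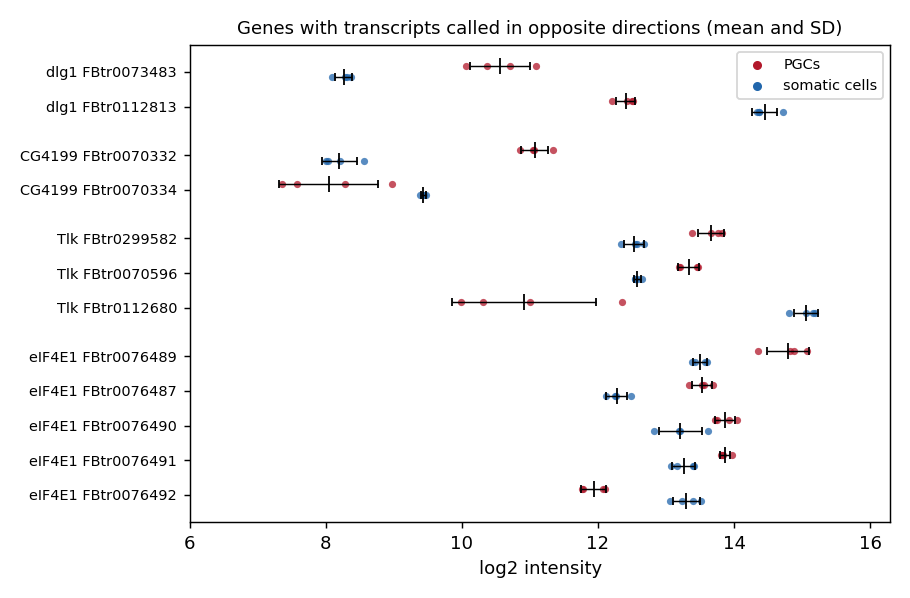
Log2 intensity of each named transcript of dlg1, CG4199, Tlk and eIF4E1 in the 4 PGC and 4 somatic arrays (points) with mean and SD. Within each gene at least 1 transcript lies to the right in PGCs and 1 to the right in somatic cells, as for dlg1, where the differences were 2.29 and -2.04.

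Markers of other cells were few among the named genes. Of 8 early somatic markers sna and zen had a name, described above, and their summed intensity on the linear scale came to 3252 to 4317 in PGCs against 9616 to 11168 in somatic cells. Of 9 blood cell markers Pxn and Pvr (-5.85), a growth factor receptor, were lower, though both have their names only through this comparison. The third, crq, a scavenger receptor gene named without it, had 14.08 to 14.43 in PGCs against 13.21 to 13.53 in somatic cells (0.93, and above 1 and called without PGC replicate 2 or with median centring). The summed blood marker intensity came to 17434 to 22142 in PGCs against 16298 to 17992 in somatic cells. In PGCs that sum was almost all crq, since Pxn and Pvr averaged 5.30 and 5.94 there on the log2 scale. Both lay below the brightest control of the array in PGC replicate 3. The muscle markers Act57B (-4.58) and up (-2.57) were lower, at a sum of 372 to 596 in PGCs against 8334 to 9433 in somatic cells, but neither was named without use of this comparison, and so their direction was set by the naming. Dim signal in the other direction came from Cp18, an eggshell gene, with 7.69, 9.52, 8.48 and 8.88 in PGCs against 5.76, 5.30, 5.86 and 5.66 in somatic cells (7.98-fold), and from nSyb, a neuronal synaptic gene, whose replicates overlapped at 6.25 to 8.39 in PGCs against 5.72 to 6.34 in somatic cells (1.63). Cp18 was the single named gene of 16 follicle cell and eggshell markers, and nSyb of 8 neuron and glia markers. None of 6 trachea and epidermis markers had a name. The part of other cells in the differences above was not tested.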

How the data were processed

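The authors amplified total RNA of sorted cells with WT-Ovation Pico, hybridised 2 samples, 1 in each dye, on every custom NimbleGen array, scanned with GenePix, quantified with Nimblescan and normalized by RMA quantiles in ArrayStar, and deposited 1 linear intensity per transcript and sample. Quantile normalization hides any change in total RNA per cell. The labels and the methods differ on the dye of the wild-type samples, and which samples shared an array is not given in the sources used here. Log2 was taken, and limma 3.58.1 (R 4.3.3) was fitted to the 8 samples without covariates, with Benjamini-Hochberg adjustment over 16623 transcripts. Another 507 features without a FlyBase transcript identifier were not tested. The number of arrays limits precision. The remaining 18 sample columns entered only an alternative fit of all 7 groups.

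Transcripts were paired with genes by matching values computed from the deposited intensities with those in the study's supplementary lists, to 6 significant digits. These served as join keys only. Of 1998 entries in the list of transcripts expressed in PGCs, 1941 matched 1 transcript, as 33 did by chance with values of a wrong group, and all entries of the other lists matched 1. The copy of the somatic list held 114 entries, so that fewer transcripts lower in PGCs have names. Symbols follow RefSeq where listed (4732 of 4800 gene identifiers). Genes were counted once by symbol.

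The members and gene lists were chosen with earlier results of these data known. Each gene is represented by its transcript of highest mean log2 signal. Named are the 10 largest differences in each direction among called genes without overlap, up to 4 per direction in each list, up to 3 per list nearest to 0, and the markers; other members were added to describe lists, and 1 gene that the rule names is not reported here. A mean at or below that of the brightest of 17 array controls was taken as background, and the ratio is then given as a bound against it. Limma was tested on simulated data with 200 changed transcripts. The alternatives were a replicate block, a second quantile normalization, SAM, centring on medians, a fit of all 7 groups, treat, a present call, dim transcripts left out, 1 transcript per gene, and each array left out. No promoter sequences were used, so the planned motif shares were not run, and gene positions were not used. Figures used Python 3.11.15 with matplotlib 3.10.9.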

Additional observations from a re-analysis of the deposited data

Results flagged for a closer look

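Of 316 sets of 4 replicates (158 named genes in 2 groups), 32 held a sample far from the other 3, where chance gives about 1 set in 20. Somatic replicate 4 was that sample in 16 sets, and PGC replicates 1 and 4 in 6 and 5. Values of somatic replicate 4 were low for ATP6 (12.86), ATPsyndelta (12.55), COX2 (13.48), ND4 (13.84), CycA (14.22), CG14629 (13.49), Not3 (13.16) and brat (14.78), and high for Hsp27 (12.20), Mtpbeta (8.41), ND-MNLL (12.61), Pop2 (13.06), Rpn12 (14.53), cad (10.94), dlg1 (14.72) and mRpS25 (12.01). Without this sample 3031 transcripts were higher and 2890 lower in PGCs. Replicate 1 of the PGCs was low for Idh3a (12.41), Idh3b (12.93), Hsp27 (14.47), scrib (14.23) and shg (10.59) and high for mRpL54 (12.90). Replicate 4 of the PGCs was low for Fum1 (12.81) and COX5A (12.68) and high for cad (12.08), Taf1 (11.20) and up (7.29). The remaining 5 were Col4a1 in PGC replicate 3 (8.48), COX2 in PGC replicate 2 (12.81), CG4238 in somatic replicate 1 (6.59), and Hsp22 (4.11) and sim (10.91) in somatic replicate 3.

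Features that are not fly transcripts entered no comparison of calls, and 3 of them exceeded every array control in all 4 samples of a group. The GFP feature averaged 12.69 in PGCs and 12.80 in somatic cells. For 2 further features, whose target the array file does not name, the means were 7.19 and 4.11 in PGCs against 10.43 and 5.28 in somatic cells. The difference was -3.24 for the first and -1.17 for the second (two-sided exact permutation tests, p = 0.0286 each, the smallest that 4 against 4 samples allow).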

How the results depend on the processing

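Counts of transcripts higher and lower in PGCs were 3080 and 2908. They stayed within 1.5 times of these with all 7 groups in 1 fit (2969 and 2778), a second quantile normalization (3197 and 2790), median centring (4174 and 2420) and SAM (3219 and 2978), and ran from 2975 to 3205 and from 2831 to 2967 with 1 array left out. They moved further with treat against a 2-fold change (1563 and 1782) and with 1 transcript per named gene (1692 and 501), which counts fewer features. With dim transcripts (mean below 7) left out they were 2302 and 1938, and with a present call in the higher group 2119 and 1819. Whether the replicate numbers pair the samples could not be told from the values. The deviations of same-numbered samples correlated at 0.1365, -0.0737, 0.0601 and 0.0439, and those of differently numbered samples at -0.1133 to 0.1019. A fit with the replicate number as a block called 3092 and 2918. No named gene that was called changed direction in any of these alternatives. Median centring took the call from RpL22, RpS12, RpL15, Polr2F, Dcp-1 and COX2, and left 4 of 7 respiratory chain genes lower. Without PGC replicate 4 the tricarboxylic acid cycle list had 2 genes lower, as had the mitochondrial ribosomal list without PGC replicate 1. The second quantile normalization took the call from rhi (0.94), UQCR-C1 (0.99), MED4 (0.97) and RpL15, which stood just short of a 2-fold decrease. With treat, 0 respiratory chain genes were higher and 2 lower, 3 mitochondrial ribosomal protein genes and 1 proteasome gene were higher, 1 cytoplasmic ribosomal protein gene and 1 mitochondrially encoded gene were lower, and 2 genes each of maternal RNA repression and of RNA polymerase II, TFIID and Mediator were higher. The causes were not tested. Signal near the array controls bounds the lowest values, and folds of such genes are limits.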
